A study of Mus musculus with 6 samples.

Results

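Ketone body synthesis and use was followed through 8 genes, Bdh1, Bdh2, Acat1, Oxct1, Aacs, Slc16a1, Slc16a6 and Slc16a7, in the liver of 2 closely related mouse substrains. These are 8 of the 22180 genes that the platform annotation pairs with a probe set of their own, and each of them had 1 such probe set, so no choice between probe sets arose. The substrains were Balb/cBy, marked KD by the submitters, and Balb/c, marked WT, with 3 male mice and 1 whole-transcript array for each mouse. Mice of both substrains received a diet with 58% of its energy as fat for 12 weeks from the age of 8 weeks, and liver RNA was taken at 20 weeks. No group on ordinary chow was part of the comparison, and whether the mice were fed or fasted at collection is not stated in the labels. The labels tie KD to no gene. Balb/cBy mice are known to carry a deletion in Acads, the short-chain acyl-CoA dehydrogenase, and each substrain is an inbred line, so any other difference between the lines is part of the contrast.

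Ketone bodies are acetoacetate, 3-hydroxybutyrate and acetone. The liver makes them in hepatocyte mitochondria from the acetyl-CoA of fatty acid oxidation, releases them through monocarboxylate carriers, and hardly burns them itself, because hepatocytes have very little of the CoA transferase that starts their use. Short-chain acyl-CoA dehydrogenase acts on butyryl-CoA, close to the end of fatty acid oxidation and next to the acetoacetyl-CoA from which ketone bodies are made.

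Values are log2 RMA values, in which a step of 1 is a doubling, and differences are Balb/cBy minus Balb/c. The medians of the 6 arrays lay between 7.98 and 8.03. The quantile normalization in RMA makes them near equal, so they do not show how alike the arrays were. The markers of the labelled tissue were present: the 6-array mean of each of 10 hepatocyte markers lay above 8.02, the level below which 95% of 1105 olfactory receptor genes fell, and the mean over them ran from 12.55 to 12.66 on the Balb/cBy arrays and from 12.48 to 12.62 on the Balb/c arrays. Acads itself read 10.60, 10.79 and 10.93 in Balb/cBy livers, against 11.53, 11.46 and 11.28 in Balb/c livers. All Balb/cBy values lay below all Balb/c values, although the adjusted p was 0.319 in limma. Balb/cBy replicate 1 had the lowest limma array weight, 0.471, and Balb/c replicate 3 the next, 0.635.

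The substrains did not differ detectably in any of the 8 genes. None passed an adjusted p of 0.05 in limma, where 0 of 23521 probe sets, or 0%, passed; the smallest adjusted p of any probe set was 0.177. At an unadjusted p under 0.05 there was 1 of the 8, Slc16a6, against 830 of 22180 genes (3.74%); 2.59% of all genes were under it and, like Slc16a6, higher in Balb/cBy. Of the 8, 2 had a positive difference and 6 a negative one, where 49.1% of all genes had a positive one. Their median difference was -0.05, beside -0.003 over all genes. The groups did not overlap in 2 of the 8, Slc16a6 and Oxct1, where 7.83% of all genes showed such separation. These counts carry no test. In whole liver, fewer cells that express a gene and less RNA per cell cannot be told apart. The p-values measure the spread between the arrays, which the labels call biological replicates.

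**Figure D1:**
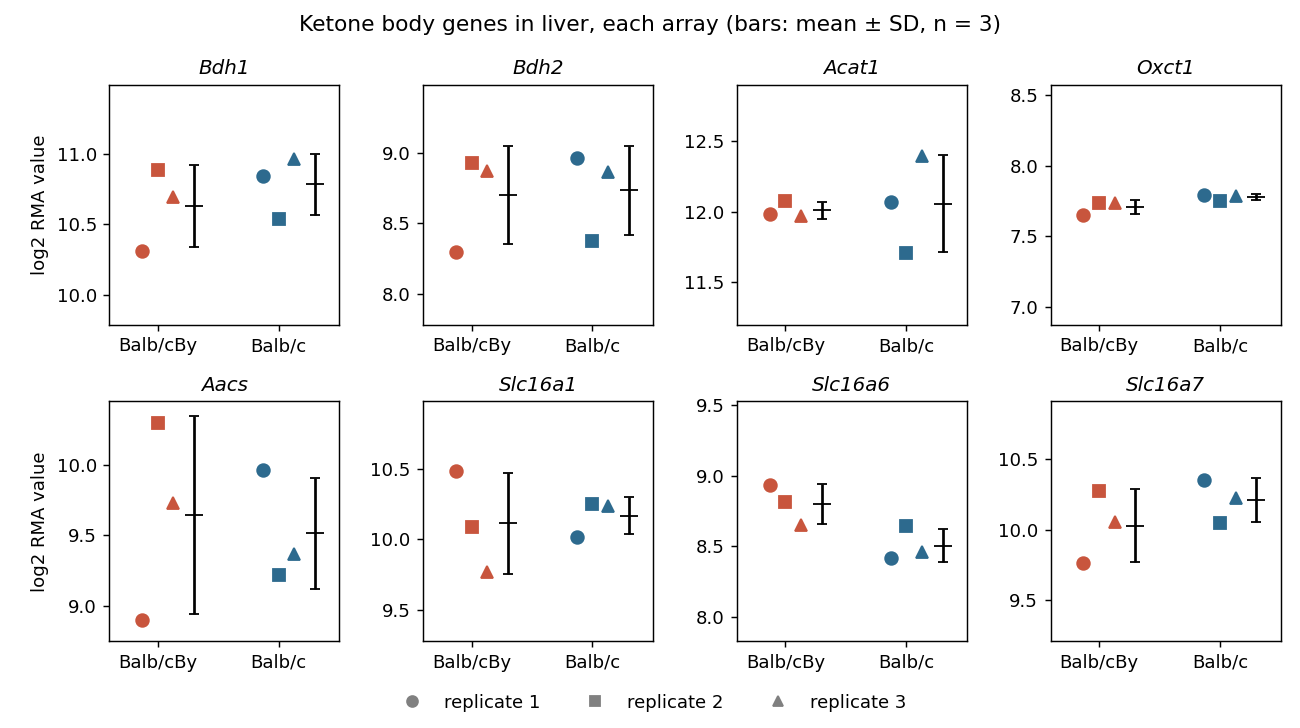
The log2 RMA value of each of the 8 genes (vertical axis, the same span in every panel) on each Balb/cBy and Balb/c array; symbols give the replicate and the bars the mean ± SD of 3 arrays. The groups overlap in all panels but Slc16a6 and Oxct1, and the Oxct1 values lie within 0.142 of each other.

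Acat1 encodes the mitochondrial acetoacetyl-CoA thiolase, which joins acetyl-CoA units on the way to ketone bodies and cleaves acetoacetyl-CoA when ketone bodies or isoleucine are broken down. Its log2 value was 11.99, 12.08 and 11.97 in Balb/cBy livers, against 12.07, 11.70 and 12.39 in Balb/c livers. The Balb/cBy values were close together and lay inside the range of the Balb/c values. The mean was 12.01 ± 0.06 in Balb/cBy livers and 12.05 ± 0.34 in Balb/c livers (SD, n = 3 each), and the difference was -0.05 ± 0.16 (SE; adjusted p = 0.999 in limma). The 95% interval ran from 0.746 to 1.26 times the Balb/c level. Without Balb/c replicate 3, the highest array, the difference was 0.12.

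Bdh1 encodes the mitochondrial dehydrogenase that interconverts acetoacetate and 3-hydroxybutyrate. It read 10.31, 10.89 and 10.69 in Balb/cBy livers, against 10.84, 10.54 and 10.96 in Balb/c livers. Balb/cBy replicate 1 was the lowest of the 6 and the other Balb/cBy arrays lay among the Balb/c values. The difference was -0.15 ± 0.17 (SE; adjusted p = 0.999 in limma), or 0.90 times the Balb/c level with an interval of 0.687 to 1.18. Without Balb/cBy replicate 1 it was 0.0061. Bdh2 encodes a cytosolic short-chain dehydrogenase that also acts on 3-hydroxybutyrate. It read 8.30, 8.93 and 8.87 in Balb/cBy livers, against 8.96, 8.38 and 8.86 in Balb/c livers. Each substrain had 1 low array, Balb/cBy replicate 1 and Balb/c replicate 2, and its other arrays lay between 8.86 and 8.96. The difference was -0.03 ± 0.21 (SE; adjusted p = 0.999 in limma), with an interval of 0.702 to 1.36 times the Balb/c level. It was 0.17 without Balb/cBy replicate 1, 0.08 without Balb/c replicate 1 and 0.03 without Balb/c replicate 3.

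Oxct1 encodes the succinyl-CoA transferase that activates acetoacetate in tissues that burn ketone bodies. Its value was 7.65, 7.74 and 7.74 in Balb/cBy livers, against 7.79, 7.75 and 7.78 in Balb/c livers. It was the 1 gene of the 8 under the olfactory receptor level of 8.02, on all 6 arrays. The groups were apart, with all Balb/cBy values lower, but the whole range was 0.142 and the separation was gone under median centring or renewed quantile normalization. The difference was -0.07 ± 0.09 (SE; adjusted p = 0.999 in limma), with an interval of 0.834 to 1.09 times the Balb/c level. RMA draws such dim values together, so its size may be understated. Of the genes above the olfactory receptor level, a set brighter than Oxct1, 1.29% had a within-group SD smaller than its 0.04. Genes as dim as Oxct1 were not ranked, so this does not show how unusual that SD is.

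Aacs encodes the cytosolic acetoacetyl-CoA synthetase, which turns acetoacetate into a building block for cholesterol and fatty acids. It read 8.90, 10.30 and 9.73 in Balb/cBy livers, against 9.96, 9.22 and 9.36 in Balb/c livers. The Balb/cBy group held both the lowest and the highest of the 6 values, 1.40 apart. Its pooled within-group SD was 0.570, higher than that of 98.7% of the 11240 genes above the olfactory receptor level. The difference was 0.13 ± 0.34 (SE; adjusted p = 0.999 in limma), and its interval, from 0.639 to 1.87 times the Balb/c level, was the widest of the 8. Without Balb/cBy replicate 2 the difference was -0.20, without Balb/c replicate 2 it was -0.02, and without Balb/cBy replicate 1 it was 0.50.

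The carriers of the SLC16 family move lactate, pyruvate and ketone bodies across membranes together with protons. Slc16a6 encodes MCT7, which in zebrafish is needed for hepatocytes to release 3-hydroxybutyrate. It read 8.94, 8.82 and 8.65 in Balb/cBy livers, against 8.42, 8.64 and 8.46 in Balb/c livers. All Balb/cBy values lay above all Balb/c values, but the gap between the nearest arrays, Balb/cBy replicate 3 and Balb/c replicate 2, was 0.01. The means were 8.80 ± 0.14 in Balb/cBy livers and 8.50 ± 0.12 in Balb/c livers (SD, n = 3 each). The difference was 0.30 ± 0.11 (SE), or 1.23 times the Balb/c level with a 95% interval of 1.03 to 1.47; the unadjusted limma p was 0.0284 and the adjusted p 0.999. Without 1 array at a time it ran from 0.23 to 0.37, and the adjusted p over the settings tried ran from 0.607 to 1. It was 0.20, with an unadjusted limma p of 0.152, without both arrays of lowest weight. In the RefSeq gene table Slc16a6 overlaps Arsg and Gm45916, and no probe positions were given to tell these genes apart.

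Slc16a1 encodes MCT1, the widespread carrier. It read 10.48, 10.09 and 9.77 in Balb/cBy livers, against 10.01, 10.25 and 10.23 in Balb/c livers. The Balb/cBy values spanned 0.71 and enclosed all the Balb/c values. The difference was -0.05 ± 0.17 (SE; adjusted p = 0.999 in limma), with an interval of 0.73 to 1.27 times the Balb/c level, and it was 0.12 without Balb/cBy replicate 3. Slc16a7 encodes MCT2, a carrier of high affinity. It read 9.76, 10.27 and 10.06 in Balb/cBy livers, against 10.36, 10.05 and 10.22 in Balb/c livers. The groups overlapped, with Balb/cBy replicate 1 lowest. The difference was -0.18 ± 0.15 (SE; adjusted p = 0.999 in limma), 0.884 times the Balb/c level with an interval of 0.70 to 1.12, and -0.04 without Balb/cBy replicate 1. It stayed negative in all 16 alternative settings, from -0.30 to -0.04, though several of these settings cannot change the difference.

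**Figure D2:**
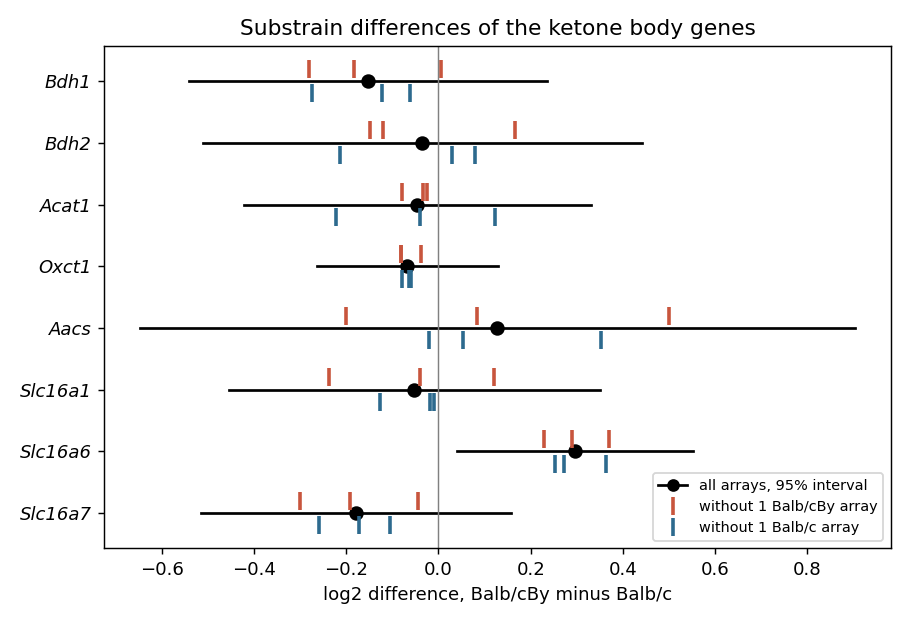
The log2 difference, Balb/cBy minus Balb/c, of each gene with its 95% limma interval (black) and the value without each single Balb/cBy array (red marks) or Balb/c array (blue marks). The interval of Slc16a6 lies above 0, from 0.04 to 0.55 before adjustment; the other 7 intervals cross 0.

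Most of the genes varied more between mice of a substrain than between the substrain means. The pooled within-group SD was larger than the size of the difference for 6 of the 8, the exceptions being Slc16a6 and Oxct1. Over the 11240 genes above the olfactory receptor level the median SD, 0.155, was likewise larger than the median size of the difference, 0.089. The share of all genes with this trait was not counted, so the count cannot be called particular to the 8. Balb/cBy replicate 1 was the lowest of the 6 arrays for Bdh1, Bdh2, Oxct1, Aacs and Slc16a7, and the highest for Slc16a1 and Slc16a6. It was the lowest array for 21.4% and the highest for 12.7% of the 11240 brighter genes. Its hepatocyte marker mean of 12.55 was the lowest of the Balb/cBy arrays but lay within the range of the Balb/c arrays. The mean over 16 genes that control ketogenesis was 9.73 there, against 10.06 and 10.05 on the other Balb/cBy arrays. This was not particular to that list. The mean over genes of cytosolic lipid synthesis was 9.60 there, against 10.28 and 10.05. That of sinusoidal endothelial markers was 9.48, against 9.69 and 9.91. Adipocyte markers had a mean of 7.87, against 8.31 and 8.47, and macrophage markers 9.77, against 10.08 and 10.17. Stellate markers and the oxidation and thiolase enzymes were also lowest there among the Balb/cBy arrays. Neutrophil and muscle markers lay between the other Balb/cBy arrays. Means were higher there for ketone use and sensing, other carriers, T and NK cell markers and pancreas markers. The cholangiocyte marker mean was higher too, 7.71 against 7.51 and 7.64. The part of this array in the pattern beyond these values was not tested.

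**Figure D3:**
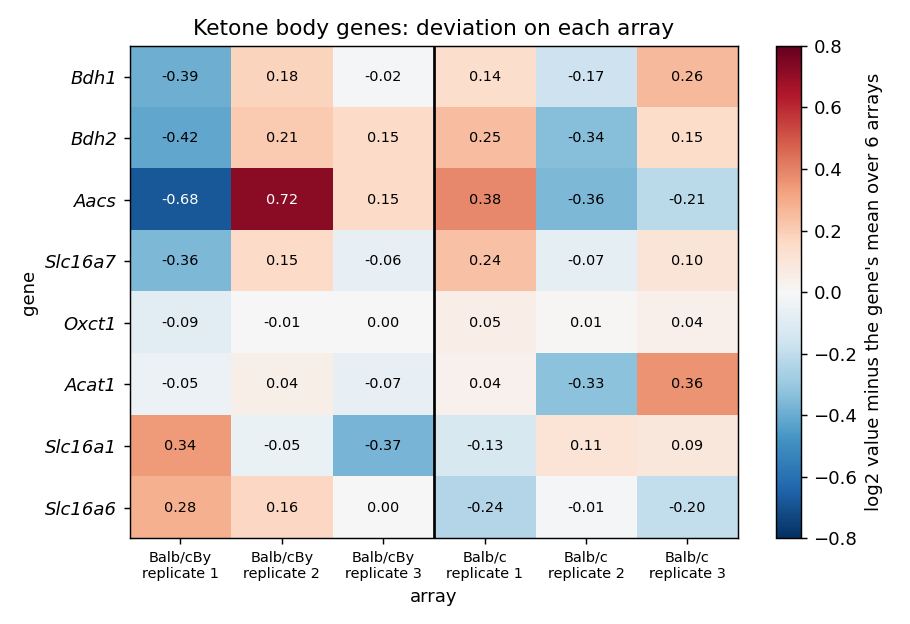
Each cell is the log2 value of a gene (rows) on an array (columns, Balb/cBy left of Balb/c) minus that gene's mean over the 6 arrays. Balb/cBy replicate 1 is low for Bdh1, Bdh2, Aacs and Slc16a7 (-0.68 to -0.36) and high for Slc16a1 and Slc16a6 (0.34 and 0.28).

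Among the 28 pairs of these genes, Bdh2 and Slc16a7 followed each other over the 6 arrays. Pearson's r was 0.85 (exact permutation p = 0.00278, or 0.0389 adjusted over the 28 pairs) and Spearman's rho 0.94 (exact permutation p = 0.0167, adjusted 0.156). It was 0.80 without the 2 arrays farthest from the Bdh2 median, 0.69 without Balb/cBy replicate 1 and 0.93 for deviations from the substrain means. Bdh1 and Slc16a7 had an r of 0.92 and a rho of 0.77 (exact permutation p = 0.0153 and 0.103, adjusted 0.13 and 0.36), with an r of 0.64 without the 2 farthest arrays. Bdh1 and Bdh2 had an r of 0.90 and a rho of 0.60 (exact permutation p = 0.0194 and 0.242, adjusted 0.13 and 0.483), but 0.07 without the 2 farthest arrays, so that relation rested on them. Bdh2 and Slc16a1 had an r of -0.74 and a rho of -0.83 (exact permutation p = 0.10 and 0.0583, adjusted 0.29 and 0.272). This r was 0.03 without the 2 farthest arrays, so it rested on them. Oxct1 and Slc16a6 were the other pair with an adjusted p under 0.05, but each of them separates the substrains, so no r over all arrays is given. Of the 28 pairs, 8 had an unadjusted exact permutation p under 0.05. Those not given above were Bdh2 with Aacs, Aacs with Slc16a7, and Oxct1 with Slc16a7 and with Bdh1. All of these had a positive r, with adjusted exact permutation p-values from 0.13 to 0.17. The points of every pair share the same 6 arrays and their normalization.

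Promoters are shown for Bdh1, Bdh2 and Aacs, which were low together on Balb/cBy replicate 1, and for Slc16a1, which was high there. RefSeq promoters of the build GRCm38.p6, from 250 bases before to 50 bases after a start site, matched 5 of the 8 genes, with 6 promoters in all. Those printed are chr16:31428503-31428802 for Bdh1, chr3:135280971-135281270 for Bdh2, chr5:125475623-125475922 for Aacs and chr3:104638414-104638713 for Slc16a1, all on the plus strand and 5′ to 3′. The Oxct1 promoter and the other Bdh1 promoter, which held no match, are not printed, although Oxct1 too was lowest on Balb/cBy replicate 1. Capitals mark matches, on either strand, to the motifs searched.
Bdh1: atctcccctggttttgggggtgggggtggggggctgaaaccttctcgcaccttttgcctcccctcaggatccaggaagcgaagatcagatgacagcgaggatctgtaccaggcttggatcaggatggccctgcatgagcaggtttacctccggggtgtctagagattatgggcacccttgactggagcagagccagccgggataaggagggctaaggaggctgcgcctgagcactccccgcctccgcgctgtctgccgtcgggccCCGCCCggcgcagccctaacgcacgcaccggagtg
Bdh2: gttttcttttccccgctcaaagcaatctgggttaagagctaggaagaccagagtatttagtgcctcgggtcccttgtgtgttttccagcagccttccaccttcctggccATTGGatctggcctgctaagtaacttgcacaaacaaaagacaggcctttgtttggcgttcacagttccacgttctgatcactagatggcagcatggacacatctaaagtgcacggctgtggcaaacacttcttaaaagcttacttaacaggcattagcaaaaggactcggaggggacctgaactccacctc
Aacs: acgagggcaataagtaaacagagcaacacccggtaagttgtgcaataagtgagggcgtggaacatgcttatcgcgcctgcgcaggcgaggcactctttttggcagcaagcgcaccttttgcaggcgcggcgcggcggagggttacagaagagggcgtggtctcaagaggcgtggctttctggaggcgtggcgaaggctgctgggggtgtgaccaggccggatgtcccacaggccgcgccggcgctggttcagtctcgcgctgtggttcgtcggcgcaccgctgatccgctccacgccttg
Slc16a1: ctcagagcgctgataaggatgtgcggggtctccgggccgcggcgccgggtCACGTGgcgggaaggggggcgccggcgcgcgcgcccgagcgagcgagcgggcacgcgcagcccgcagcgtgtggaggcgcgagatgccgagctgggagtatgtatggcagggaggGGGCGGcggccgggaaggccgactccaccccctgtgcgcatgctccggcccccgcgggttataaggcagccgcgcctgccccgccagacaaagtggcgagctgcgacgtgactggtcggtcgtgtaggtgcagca
The motifs were AGGTCA, the core letters of nuclear receptor sites, its direct repeat with 1 base between (DR1), the E-box CACGTG, the TATA box TATAAA, the CCAAT box, the GC box GGGCGG and the cAMP element TGACGTCA. Slc16a1 held an E-box 200 bases before its start, a palindrome that reads alike on both strands, and GGGCGG 85 bases before it. Of all 32851 promoters, 7.15% held CACGTG and 35.7% held GGGCGG. The Bdh2 promoter held a CCAAT box on the minus strand, 141 bases before its start, as 37.4% of all did, and that of Bdh1 held GGGCGG on the minus strand, 16 bases into the transcript. None of the 6 promoters held AGGTCA, which 16.3% of all did, nor the DR1 repeat, which 0.0396% did, nor TATAAA (13.6%) or TGACGTCA (1.79%). The Aacs, Oxct1 and other Bdh1 promoters held none of the letters searched. These matches describe the sequence in these windows and say nothing of binding.

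No other measured gene on the lists of related genes passed either. Of 6 oxidation, thiolase and related enzymes, 0 rose and 0 fell in limma, and all 6 differences were negative (median -0.05). The smallest p-values were those of Hadha, of the trifunctional protein, at -0.15 ± 0.11 (SE), and Hadh, the hydroxyacyl-CoA dehydrogenase, at -0.14 ± 0.09 (SE). Of 16 genes that control ketogenesis, 0 passed in either direction; 6 differences were positive and 10 negative (median -0.08). Fgf21, a hormone induced in fasting, read 8.20, 8.21 and 8.01 in Balb/cBy livers, against 8.27, 8.42 and 8.35 in Balb/c livers. These groups did not overlap, close to the olfactory receptor level, and the difference was -0.21 ± 0.10 (SE, adjusted p = 0.999 in limma). Such separation was found in 2 of the 16, against 7.83% of all genes. The other was Creb3l3, at -0.18 ± 0.10 (SE), with a 6-array mean of 11.70. Ppara, the fatty acid sensor that drives ketogenic genes, read 9.74, 10.27 and 10.54 in Balb/cBy livers, against 10.43, 10.45 and 10.81 in Balb/c livers, a difference of -0.38 ± 0.20 (SE; adjusted p = 0.999 in limma).

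**Figure D4:**
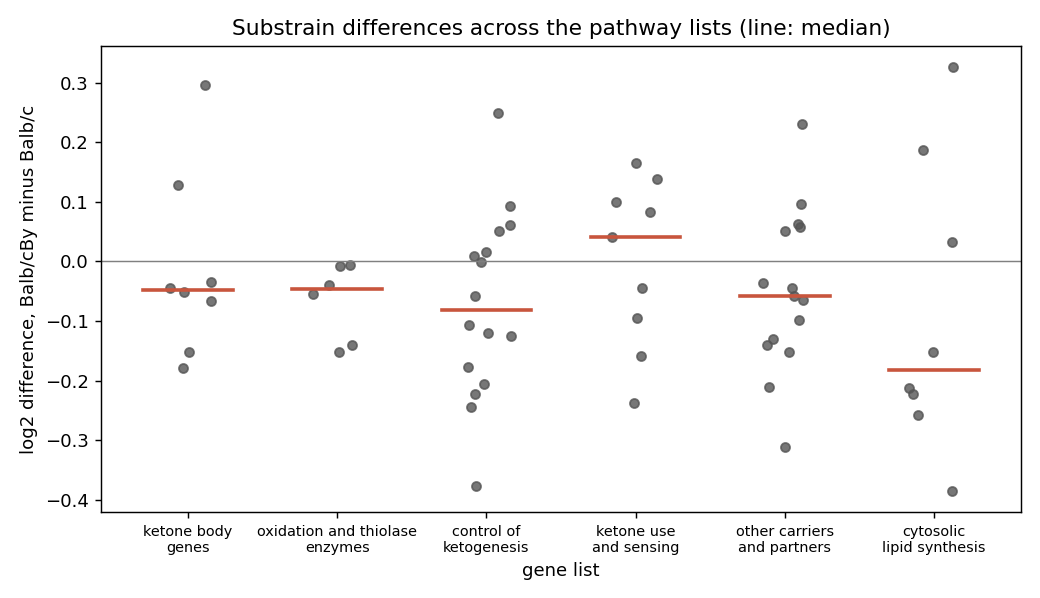
Points are genes and give the log2 difference, Balb/cBy minus Balb/c (vertical axis), in the 8 ketone body genes and 5 lists of related genes (horizontal axis); the red line is the median of each list. The medians run from -0.18 to 0.04, and no gene shown passed limma's adjusted p of 0.05.

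Of 15 other carriers and their partners, 0 passed, 5 differences were positive and 10 negative (median -0.06). The smallest p-values were those of Slc16a12, a carrier known for creatine, at -0.31 ± 0.16 (SE), and Slc5a12, a sodium-coupled lactate carrier, at -0.21 ± 0.10 (SE). The groups did not overlap in 4 of the 15, Slc5a12, Slc5a8, Slc16a5 and Slc16a8, all lower in Balb/cBy livers. Over all genes 7.83% showed such separation. Of these carriers, Slc16a8 lay above the olfactory receptor level, at -0.15 ± 0.09 (SE), and the others under it. Bsg, the membrane partner of MCT1, differed by 0.10 ± 0.10 (SE). Of 9 genes of ketone use and sensing, 0 passed, 5 differences were positive and 4 negative (median 0.04). Oxct2a, a paralog of Oxct1, differed by 0.16 ± 0.09 (SE) under the olfactory receptor level, and Sucla2, a succinyl-CoA ligase subunit, by -0.24 ± 0.17 (SE). Of 8 genes of cytosolic lipid synthesis, the route that Aacs feeds, 0 passed, 3 differences were positive and 5 negative (median -0.18). Sqle, squalene epoxidase, read 8.03, 8.49 and 8.01 in Balb/cBy livers, against 7.74, 7.95 and 7.87 in Balb/c livers, a difference of 0.33 ± 0.14 (SE; adjusted p = 0.999 in limma). Hmgcs1, the cytosolic HMG-CoA synthase, went the other way at -0.39 ± 0.20 (SE).

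Over 6 arrays many genes share a pattern, so the closest ones are a description. For Slc16a6, among 11239 genes above the olfactory receptor level, these were Wscd2, St3gal1 and Fndc3b, with r from 0.977 to 0.987, and 10 genes had an r above 0.95. For Oxct1, among 11240 genes, they were Slc25a16, Dpys and Peli1, with r from 0.981 to 0.989, and 17 genes had an r above 0.95.

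Of the markers of other cell types, 0 passed an adjusted p of 0.05 in limma, but several stellate cell markers differed by more than any of the 8 genes. Unadjusted p-values under 0.05 were found for 3 of 10 stellate markers, all higher in Balb/cBy livers, where 3.74% of all genes were under it. Lum, an extracellular matrix proteoglycan, read 8.34, 8.51 and 8.48 in Balb/cBy livers, against 8.12, 7.83 and 7.78 in Balb/c livers, a difference of 0.53 ± 0.12 (SE; adjusted p = 0.586 in limma) without overlap. Dcn, another such proteoglycan, differed by 0.48 ± 0.14 (SE), also without overlap, and Rgs5, a pericyte gene, by 0.52 ± 0.22 (SE), with overlap. The other stellate markers differed less. Reln, Lrat and Pdgfrb differed by 0.36, 0.23 and 0.13. Des, Col1a1, Col3a1 and Ngfr differed by 0.02, 0.005, -0.03 and -0.17. An unadjusted p under 0.05 was also found for 1 of 10 macrophage markers, Vsig4 at 0.41 ± 0.16 (SE), 2 of 8 neutrophil markers, Retnlg at 0.40 ± 0.11 (SE) and S100a8 at 0.29 ± 0.12 (SE), and 1 of 7 T and NK cell markers, Nkg7 at -0.24 ± 0.09 (SE). Retnlg and S100a8 lay under the olfactory receptor level. The 2 neutrophil markers above it, S100a9 and Csf3r, differed by -0.002 ± 0.22 and 0.07 ± 0.13 (SE). Among the hepatocyte markers it was found for Serpina1a, at 0.55 ± 0.21 (SE). Positive differences were found in 8 of 10 stellate cell markers (median 0.18), 6 of 10 macrophage markers (0.10), 6 of 10 sinusoidal endothelial markers (0.02), 7 of 8 neutrophil markers (0.17), 0 of 7 T and NK cell markers (-0.08) and 1 of 5 cholangiocyte markers (-0.07). Only 2 of the 8 neutrophil, 2 of the 7 T and NK cell and 1 of the 5 cholangiocyte markers lay above the olfactory receptor level. The mean of the stellate markers ran from 9.49 to 9.75 on the Balb/cBy arrays and from 9.26 to 9.57 on the Balb/c arrays. For tissues that burn ketone bodies or could be carried along, positive differences were found in 5 of 6 muscle markers (0.09), 2 of 4 adipocyte markers (0.12) and 1 of 5 pancreas markers (-0.11). Balb/c replicate 3 had a pancreas marker mean of 8.36, where the other arrays ran from 7.75 to 7.85. Ctrb1 read 9.69 there. The same array had the lowest macrophage marker mean, 9.48. The part of other cell types and tissues in the values of the 8 genes was not tested.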

How the data were processed

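Liver RNA of 3 Balb/cBy and 3 Balb/c mice was measured on Affymetrix arrays, 1 per mouse, from 500 ng of total RNA per the labels' protocols. The deposited log2 values were made by the authors with RMA (background correction, quantile normalization, probe set summary), per the submitters' processing notes; the software, its version and the build of the probe sets are not given in the sources used here. A total of 41345 probe sets was tabled, of which 23521 carry 1 gene symbol in the platform annotation, 1814 several and 16010 none listed. Those with 1 symbol were fitted with limma 3.58.1 in R 4.3.3, with the substrain as the single term, empirical Bayes moderation and Benjamini-Hochberg adjustment over all of them. Intervals are 95% intervals of that fit, before adjustment. The number of arrays limits the precision, and 3 against 3 arrays cannot give a permutation p for a difference under 0.05. The fit was tested on simulated arrays.

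The 8 genes, the gene lists, the motifs and the alternatives were chosen with earlier results of these data known. Named besides the 8 were, by rule, up to 4 genes of a list with an unadjusted p under 0.05, or else the 2 with the smallest p, and the 3 genes most like each member whose groups did not overlap. Bsg was named after its value was seen. Also named outside this rule were the other stellate markers, S100a9, Csf3r, Ctrb1, Creb3l3, Slc5a8, Slc16a5 and Slc16a8. Apart from Ctrb1, no gene is named from a marker list with no unadjusted p under 0.05. Overlapping genes were read from a RefSeq table of GRCm38.p6, used for names and order only since the build of the probe sets is unknown.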

Additional observations from a re-analysis of the deposited data

How the results depend on the processing

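Under the 16 alternative settings, 0 of the 8 genes passed limma's adjusted p of 0.05 in any. Slc16a6 stayed positive and Slc16a7 negative in all 16, and Oxct1 negative in the 15 that held it. Settings that change only the error model, the replicate block or the probe sets fitted leave a difference as it was. The groups of Slc16a6 and Oxct1 did not overlap, so leaving out or reweighting arrays could not turn their sign. The count of probe sets passing, 0 with all arrays weighted alike, was 31 with array weights, 16 without the 2 arrays of lowest weight (Balb/cBy replicate 1 and Balb/c replicate 3), and 0 to 4 without single arrays (4 without Balb/cBy replicate 1, 2 without Balb/c replicate 3). Genes with a positive difference numbered 1 to 4 of 8 without single arrays and 5 without the 2 arrays of lowest weight. Genes without overlap between groups numbered 1 under renewed quantile normalization, median centring and brighter probe sets only. Without single arrays the differences ran from -0.28 to 0.0061 for Bdh1, -0.21 to 0.17 for Bdh2, -0.22 to 0.12 for Acat1, -0.20 to 0.50 for Aacs and -0.24 to 0.12 for Slc16a1. Without the 2 arrays of lowest weight Bdh1 (0.10), Bdh2 (0.23) and Acat1 (0.14) turned positive; with array weights Bdh2 was 0.0031. The cause of these turns was not tested. The labels do not say that the replicate numbers pair the samples. Same-numbered deviations correlated at -0.32, -0.20 and -0.23. Differently numbered arrays were not compared, so these values cannot decide whether samples were paired. With the replicate block, 0 probe sets passed, and Slc16a6 differed by 0.30 with an unadjusted limma p of 0.0564. With 3 arrays a group, the interval of each gene sets what size of difference could be seen.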

Other observations

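Hadhb, the thiolase subunit of the trifunctional protein and partner of Hadha, had log2 values from 7.12 to 7.45 on the 6 arrays, all under the olfactory receptor level of 8.02, and differed by -0.04 ± 0.12 (SE). Acat3, another thiolase gene, had its lowest and highest values on the same arrays as Acat1. Balb/c replicate 2 read 10.20 and Balb/c replicate 3 read 11.11, where Acat1 read 11.70 and 12.39. Insig1, a sterol-regulated protein of the endoplasmic reticulum, was lowest on Balb/cBy replicate 1 at 10.13 and highest on Balb/cBy replicate 2 at 11.48, as Aacs was (8.90 and 10.30). Hadhb, Acat3 and Insig1 were picked with their values in view, and no test was made.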
